A study of Homo sapiens with 6 samples.

Results

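The 10 genes described here act in the synthesis, turnover, recycling or use of glutathione. They were followed in ARPE-19 cells with and without an enzyme that makes hydrogen peroxide. They are GCLC, GCLM, GSS, GSR, GLRX, GLRX2, GLRX3, GLRX5, GGCT and ESD. All probe sets whose platform annotation gives 1 of these symbols and no other were taken, which gave 22 of the 49372 probe sets of the array, and 10 of the 18132 genes with such a probe set. ARPE-19 is an established line of human retinal pigment epithelium. The protocol describes a plasmid carrying green fluorescent protein in the cells of every sample. The treatment began 48 h after that transfection: 3 arrays are titled 0 h, from cells without enzyme, and 3 are titled 3 h, from cells given glucose oxidase at 10 mU/ml during 3 h. Glucose oxidase makes hydrogen peroxide from the glucose of the medium. The descriptions of the 3 h arrays instead name a construct of green fluorescent protein with alpha satellite, a centromeric repeat, while the titles name no plasmid, so the construct and the exposure cannot be told apart if those descriptions hold. The labels leave unclear whether the 0 h cells were lysed at the start of treatment or kept as long without enzyme, and they do not say that replicates were separate cultures, so p-values measure the spread between these arrays, which may be technical.

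Glutathione is a small peptide of glutamate, cysteine and glycine that carries the main thiol reductant of the cytosol. Glutamate-cysteine ligase, made of a catalytic subunit (GCLC) and a modifier subunit (GCLM), performs the first and rate-limiting step, and glutathione synthetase (GSS) adds glycine. Glutathione reductase (GSR) uses NADPH to restore the peptide after peroxides have oxidised it, and glutaredoxins use it to remove glutathione from protein thiols or to hold and pass on iron-sulfur clusters. Retinal pigment epithelium lives under high oxygen and light, and glutathione is known to protect it from peroxide. In many cells the transcription factor NRF2 raises GCLC, GCLM and GSR through antioxidant response elements in their regulatory DNA.

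The DNA just before the start of GCLM, GCLC and GLRX is shown because GCLM and GCLC encode the subunits of 1 enzyme and GLRX had the largest decrease among the members. Each window is the 250 bases before the RefSeq start on GRCh38.p14, on the strand of the gene. GCLM is chr1:93909431-93909680, GCLC chr6:53545102-53545351 and GLRX chr5:95822727-95822976, all on the minus strand. Capitals mark matches on either strand to the antioxidant response element core TGACNNNGC, the AP-1 element TGANTCA, the CCAAT box CCAAT or the GC box GGGCGG, of which the first and second can overlap each other.
GCLM: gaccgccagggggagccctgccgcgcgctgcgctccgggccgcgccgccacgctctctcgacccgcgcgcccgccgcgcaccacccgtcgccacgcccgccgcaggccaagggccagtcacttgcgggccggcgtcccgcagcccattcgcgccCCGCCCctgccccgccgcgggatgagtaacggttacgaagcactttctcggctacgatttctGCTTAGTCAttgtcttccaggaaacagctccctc
GCLC: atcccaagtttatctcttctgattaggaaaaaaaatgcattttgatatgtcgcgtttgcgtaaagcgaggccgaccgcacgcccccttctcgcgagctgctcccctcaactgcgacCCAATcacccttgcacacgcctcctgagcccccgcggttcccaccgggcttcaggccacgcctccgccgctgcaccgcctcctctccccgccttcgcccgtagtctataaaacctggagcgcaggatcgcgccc
GLRX: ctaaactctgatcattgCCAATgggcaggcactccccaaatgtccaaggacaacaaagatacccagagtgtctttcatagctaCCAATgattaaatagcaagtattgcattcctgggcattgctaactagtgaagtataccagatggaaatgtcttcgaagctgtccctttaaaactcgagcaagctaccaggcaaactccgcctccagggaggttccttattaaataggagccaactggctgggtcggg
Of the 10 genes, 6 had a window in the RefSeq table. GCLM was the only 1 of these 6 whose windows held the antioxidant response element core. The match, TGACTAAGC, was read on the opposite strand from 34 to 26 bases before the start. The core was found in 10.9% of all 35116 windows of that length, the AP-1 element in 6.57%, the CCAAT box in 32% and the GC box in 42.6%. GLRX had 2 CCAAT boxes and GCLC had 1, GLRX5 (not shown) had 5, and none of the windows of the 6 genes had the AP-1 element. The element described for GCLC lies farther upstream than this window, and a match or its absence here is a description of letters only. The GLRX window had 46.4% G and C, against 72.4% for GCLM, 60.8% for GCLC and a median of 58.0% over all windows.

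Across the whole array, values were on a log2 scale with medians of 5.30 to 5.34 on every array. A floor at the 40th percentile of the mean over all arrays (log2 4.64) left 29576 probe sets to test. Pearson correlations across probe sets, which are not independent replicates, were 0.997 among 0 h arrays, 0.994 to 0.996 among 3 h arrays and 0.974 to 0.979 between groups. Controls added to the RNA or to the hybridization shifted too: 24 of 24 poly-A probe sets (median -0.60) and 17 of 18 hybridization ones (-0.31) read below all 0 h values at 3 h. The log2 difference between 5′ and 3′ probe sets went from -2.06 ± 0.07 to -1.20 ± 0.06 for actin and from -0.39 ± 0.05 to -0.13 ± 0.04 for GAPDH (SD, n = 3, two-sided exact permutation p = 0.1 for each, the smallest that 3 against 3 arrays allow). These controls moved with every result below, and their part in the results was not tested; the preparation of the arrays and the exposure cannot be told apart. Of 13 pigment epithelium markers with a probe set, 11 passed the floor, and the visual cycle genes RPE65 and RLBP1 did not (group means 3.48 and 4.20 at 0 h as at 3 h). Of these 11, 4 rose (KRT8, KRT18, MITF and OTX2) and 2 fell (SERPINF1 and RDH11). Over all genes tested by their brightest probe set, 19.9% were called higher and 29.8% lower, the background of each marker count. Photoreceptor and neuronal markers passed in 7 of 7 cases, and 2 of them, PDE6B and SYT1, fell. The 0 h means of this list ran from only 4.79 (NRL) to 6.42 (SNAP25), beside array medians of 5.30 to 5.34 and a floor of 4.64. The summed level of that list ran from 8.57 to 8.61 (log2) on the 0 h arrays and from 8.42 to 8.44 on the 3 h arrays, that of the pigment epithelium list from 13.28 to 13.31 and from 13.54 to 13.61, and that of the blood and endothelial list from 8.89 to 8.99 and from 8.87 to 8.97. The pigment epithelium sum mainly follows its brightest genes, the keratin genes KRT18 (mean 12.22 at 0 h and 12.56 at 3 h) and KRT8 (11.48 and 11.88). Of 7 blood and endothelial markers 5 passed, none was called in limma (1, CD3E, had an unadjusted p under 0.05), and PTPRC and CD14 lay under the floor.

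Most members differed little between the groups, and 7 of the 8 that passed the test were lower at 3 h. The comparison asks which transcripts differed after 3 h of exposure. Of the 22 probe sets 19 passed the floor. With limma and a threshold of 0.05 on adjusted p, 7 fell, 1 rose and 11 did not pass, so that 8 of 19 were called against 51.4% of all tested probe sets. Over all tested probe sets 25.8% were called lower and 25.6% higher, beside 36.8% of members called lower and 5.26% called higher. The higher share stayed below that of all features tested in each of the 18 alternatives run, whereas the lower share turned below it with 5 of the 6 arrays left out in turn and in 4 of 12 other alternatives, so no excess of lower calls is read from it. The median log2 change was -0.10 over the tested members and 0.01 over all tested probe sets, and the median absolute change was 0.16 against 0.22. For 12 of 19 the 0 h and 3 h values were fully separate (background 60.6%), with the 3 h arrays below in 9 (background 30.5%) and above in 3 (background 30.1%). Less RNA per cell and fewer cells with the transcript cannot be told apart in such bulk samples. Only 3 calls held whichever array was left out: those of GLRX 11718049_s_at, GLRX 11718048_a_at and GSR 11756634_a_at. Leaving out 1 array gave 2 to 5 of 19 lower calls (10.5% to 26.3%, background 20.5% to 25.2%) and 1 higher call (5.26%, background 21.1% to 24.5%). Of the 19, 2 were called lower without replicate 1 or 3 at 0 h, 3 without replicate 2 at 0 h, 5 without replicate 1 at 3 h and 4 without replicate 2 or 3 at 3 h. The 5 calls that ended are given with their genes. With no floor, where 15.6% of all probe sets were called lower, only the same 2 of GLRX were called lower among the members.

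**Figure D1:**
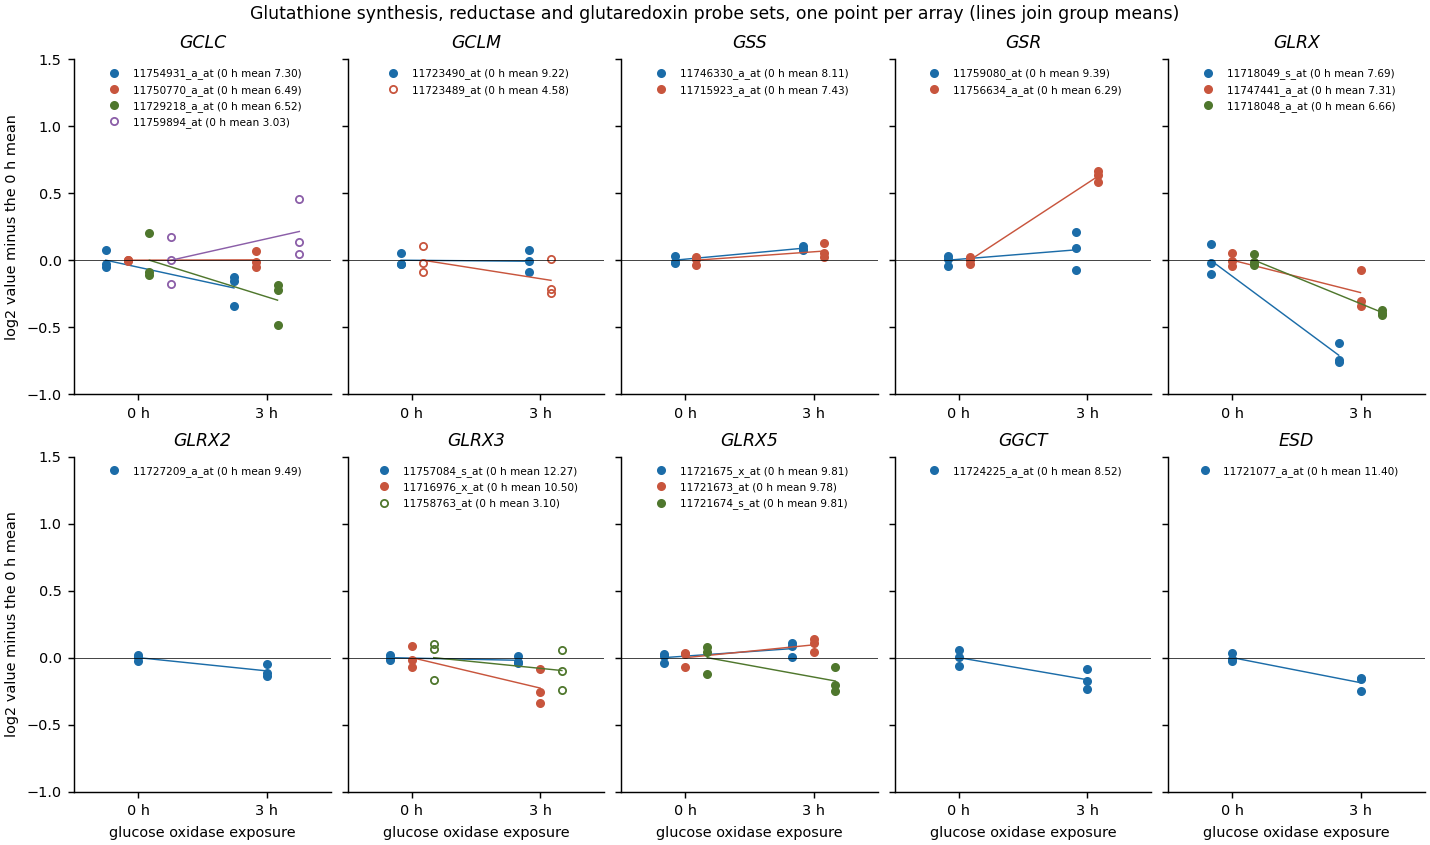
Each panel is 1 gene, each point 1 array, and each colour 1 probe set; the vertical axis is the log2 value minus that probe set's mean at 0 h, and lines join the group means. Open points are probe sets under the floor. Probe set 11718049_s_at of GLRX lies lowest at 3 h, and 11756634_a_at of GSR lies 0.63 above its 0 h mean.

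**Figure D2:**
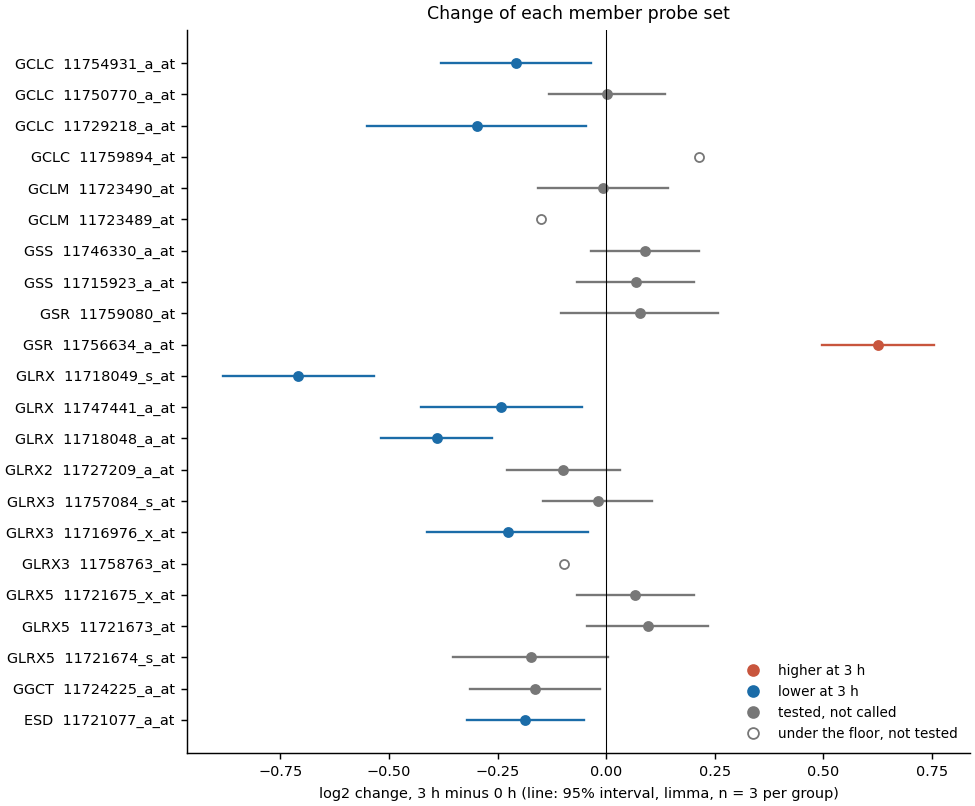
Log2 change of every member probe set, 3 h minus 0 h, with the 95% interval from limma as a line (n = 3 per group). Blue marks the 7 that fell, red the 1 that rose, grey those not called, and open circles those under the floor, which have no interval.

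The catalytic subunit gene GCLC was lower at 3 h on 2 of its 3 probe sets above the floor and level on the other. The log2 values of 11754931_a_at were 7.27, 7.37 and 7.25 at 0 h and 7.14, 7.17 and 6.96 at 3 h. All 3 h values lay below all 0 h values. The fall was 0.21 on the log2 scale (SE 0.08, 1.15-fold lower, limma adjusted p = 0.0480). Probe set 11729218_a_at read 6.43, 6.40 and 6.72 at 0 h and 6.03, 6.30 and 6.33 at 3 h, and the groups again did not overlap. It fell by 0.30 (SE 0.11, limma adjusted p = 0.0498). Probe set 11750770_a_at read 6.49, 6.48 and 6.49 at 0 h and 6.47, 6.44 and 6.55 at 3 h, with overlapping groups, a change of 0.00 and a 95% interval of -0.13 to 0.14. That change was -0.02 with quantile normalization and -0.03 with median centring. The dim 11759894_at, under the floor, read 2.86 to 3.20 at 0 h and 3.08 to 3.48 at 3 h. Neither GCLC call held in all alternatives. With array weights they stood at -0.19 and -0.25 (limma adjusted p = 0.0515 and 0.0695), and the call of 11754931_a_at also ended without shared probe sets (0.0535). The mean of the GCLC probe sets stood at -0.07 (limma adjusted p = 0.342), but it takes in the dim 11759894_at, whose change was 0.21. That of 11754931_a_at ended without replicate 1, 2 or 3 at 0 h (-0.22, -0.17, -0.23) and without replicate 1 or 3 at 3 h (-0.23, -0.14). That of 11729218_a_at ended without replicate 1, 2 or 3 at 0 h (-0.34, -0.36, -0.20) and without replicate 1 or 2 at 3 h (-0.20, -0.34).

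The modifier subunit gene GCLM, whose window carries the antioxidant response element core shown above, did not pass the test. Its bright probe set 11723490_at read 9.19, 9.28 and 9.20 at 0 h and 9.21, 9.13 and 9.30 at 3 h. The groups overlapped fully. The log2 change was -0.01 (95% interval -0.16 to 0.14, limma adjusted p = 0.928). The interval holds no 1.5-fold change, but it measures only the spread between these arrays. A shift between the groups, such as that of the added controls, is not covered by it. The change was 0.02 without replicate 2 at 0 h and 0.03 without replicate 2 at 3 h. The other probe set, 11723489_at, lay just under the floor at 4.49 to 4.69 at 0 h and 4.34 to 4.59 at 3 h. To compare the subunits directly, the value of GCLC 11754931_a_at was subtracted from that of GCLM 11723490_at on each array. This difference was 0.20 larger at 3 h, and the groups did not overlap (two-sided exact permutation p = 0.1, the smallest possible, n = 3, and 0.1 adjusted over the 2 such comparisons made). It shrank to 0.09 without replicate 3 at 3 h. Averaging all probe sets of each gene gave -0.01, but these means take in the GCLC and GCLM probe sets under the floor (changes of 0.21 and -0.15). As 3 against 3 arrays cannot give a p under 0.1, this test cannot decide whether the subunits changed alike.

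GSS, which completes glutathione, stood slightly higher without passing. Probe set 11746330_a_at read 8.10, 8.09 and 8.14 at 0 h and 8.19, 8.21 and 8.19 at 3 h. The 3 h arrays all lay above, by 0.09 (95% interval -0.04 to 0.21, limma adjusted p = 0.201). Probe set 11715923_a_at read 7.44, 7.40 and 7.45 at 0 h and 7.45, 7.56 and 7.49 at 3 h. Its groups overlapped, with a change of 0.07 (interval -0.07 to 0.20). The 2 probe sets of GSS differed by only 0.02 in their change. GGCT encodes gamma-glutamylcyclotransferase, which releases amino acids from gamma-glutamyl dipeptides in the turnover of glutathione. Its 1 probe set, 11724225_a_at, read 8.52, 8.46 and 8.58 at 0 h and 8.44, 8.35 and 8.29 at 3 h. The 3 h values were all below, and the change of -0.16 missed the threshold (interval -0.31 to -0.01, limma adjusted p = 0.0651). It was called lower without replicate 1 at 3 h (-0.20), with median centring (-0.20, limma adjusted p = 0.0316), with the floor at the 60th percentile (0.0396), with eBayes using a trend and robust fit (0.0322) and in the test over gene means (0.0349).

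GSR, the reductase, was the only member with a rise, on 1 of its 2 probe sets. Probe set 11756634_a_at read 6.26, 6.30 and 6.31 at 0 h and 6.93, 6.87 and 6.95 at 3 h. The groups lay far apart compared with their spread (SD 0.02 and 0.04). The rise was 0.63 on the log2 scale (SE 0.06, 1.54-fold higher, limma adjusted p = 9.64e-05, higher on 3 of 3 arrays), and 5.66% of all tested probe sets rose by more. Leaving out any 1 array gave 0.61 to 0.65. Probe set 11759080_at read 9.35, 9.40 and 9.42 at 0 h and 9.48, 9.32 and 9.60 at 3 h. Its groups overlapped, and the change was 0.08 (interval -0.10 to 0.26, limma adjusted p = 0.440). The difference between the changes of the 2 probe sets was 0.55, with no overlap of the groups (two-sided exact permutation p = 0.1, n = 3, 0.133 adjusted over 12 pairs). Averaged over both probe sets, GSR stood 0.35 higher (limma adjusted p = 0.000789 over genes).

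GLRX, the cytosolic glutaredoxin with a dithiol active site, fell on all 3 of its probe sets. The brightest, 11718049_s_at, read 7.67, 7.59 and 7.81 at 0 h and 6.93, 7.07 and 6.94 at 3 h. Every 3 h value lay at least as far below the 0 h values as the 0 h values spread among themselves. The fall was 0.71 on the log2 scale (SE 0.08, 1.63-fold lower, limma adjusted p = 0.000203), and 2.01% of all tested probe sets fell by more. Probe set 11718048_a_at read 6.71, 6.63 and 6.64 at 0 h and 6.29, 6.25 and 6.27 at 3 h. It fell by 0.39 (SE 0.06, 1.31-fold lower, limma adjusted p = 0.000751) with tight groups (SD 0.04 and 0.02). Probe set 11747441_a_at read 7.36, 7.30 and 7.26 at 0 h and 7.00, 7.23 and 6.97 at 3 h. Replicate 2 at 3 h came close to the lowest 0 h value, and the fall was 0.24 (SE 0.08, limma adjusted p = 0.0352). This last call ended without replicate 1, 2 or 3 at 0 h (-0.22, -0.24, -0.26) and without replicate 1 or 3 at 3 h (-0.21, -0.19). The suffix of the brightest probe set (_s) marks probes that can match transcripts of more than 1 gene, and the suffix _a of the other 2 marks transcripts of 1 gene. Averaged over the 3, GLRX stood at -0.45.

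GLRX2, the mitochondrial dithiol glutaredoxin, had 1 probe set, 11727209_a_at. It read 9.49, 9.47 and 9.52 at 0 h and 9.36, 9.44 and 9.38 at 3 h. The 3 h values were all lower, by 0.10, without passing (interval -0.23 to 0.03, limma adjusted p = 0.177). GLRX3 is the cytosolic monothiol glutaredoxin that works with BolA proteins in iron handling. Its brightest probe set, 11757084_s_at, read 12.29, 12.27 and 12.26 at 0 h and 12.24, 12.23 and 12.29 at 3 h. These groups overlapped, with a change of -0.02 (interval -0.15 to 0.11). Probe set 11716976_x_at read 10.48, 10.43 and 10.59 at 0 h and 10.41, 10.16 and 10.25 at 3 h, and the groups did not overlap. It fell by 0.23 (SE 0.08, limma adjusted p = 0.0443). The call ended without replicate 1, 2 or 3 at 0 h (-0.24, -0.26, -0.18) and without replicate 2 or 3 at 3 h (-0.17, -0.21). Both of these carry suffixes (_s, _x) for shared or cross-hybridizing probes, so signal from near-identical sequences cannot be told apart. The third, 11758763_at, lay under the floor at 2.93 to 3.20 at 0 h and 2.86 to 3.15 at 3 h.

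GLRX5, which hands iron-sulfur clusters on inside mitochondria, had 3 bright probe sets and no call. Probe set 11721675_x_at read 9.83, 9.82 and 9.77 at 0 h and 9.89, 9.91 and 9.82 at 3 h, a change of 0.07 (interval -0.07 to 0.20). Probe set 11721673_at read 9.81, 9.81 and 9.71 at 0 h and 9.88, 9.91 and 9.82 at 3 h, with a change of 0.10 and no overlap. Probe set 11721674_s_at ran the other way. It read 9.85, 9.69 and 9.89 at 0 h and 9.74, 9.56 and 9.60 at 3 h, a change of -0.17 (limma adjusted p = 0.0923). Leaving out replicate 2 at 0 h gave a call at -0.24, as did eBayes with a trend and robust fit at -0.17 (0.0267). Averaged over the 3, the change was -0.00. To compare a dithiol with a monothiol glutaredoxin of the cytosol, GLRX3 11757084_s_at was subtracted from GLRX 11718049_s_at on each array. Both have the suffix of shared probes (_s), so the comparison was not run without shared probe sets. The difference of GLRX and GLRX3 fell by 0.69 at 3 h with no overlap between groups (two-sided exact permutation p = 0.1, the smallest possible, n = 3, and 0.1 adjusted over 2 comparisons). The difference was -0.33 when all probe sets of each gene were averaged, the GLRX3 probe set under the floor among them. Other probe sets above the floor lay closer together: GLRX changed by -0.24 and -0.39 on its others, and GLRX3 by -0.23 on its other. As 3 against 3 arrays cannot give a p under 0.1, this test cannot decide whether these genes changed alike.

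ESD encodes the esterase that frees glutathione from S-formylglutathione at the end of formaldehyde clearance. Its 1 probe set, 11721077_a_at, read 11.44, 11.39 and 11.38 at 0 h and 11.24, 11.15 and 11.25 at 3 h. All 3 h values were lower, and ESD fell by 0.19 (SE 0.06, 1.14-fold lower, limma adjusted p = 0.0278). The call ended without replicate 1, 2 or 3 at 0 h (-0.17, -0.19, -0.20) and without replicate 2 at 3 h (-0.15).

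**Figure D3:**
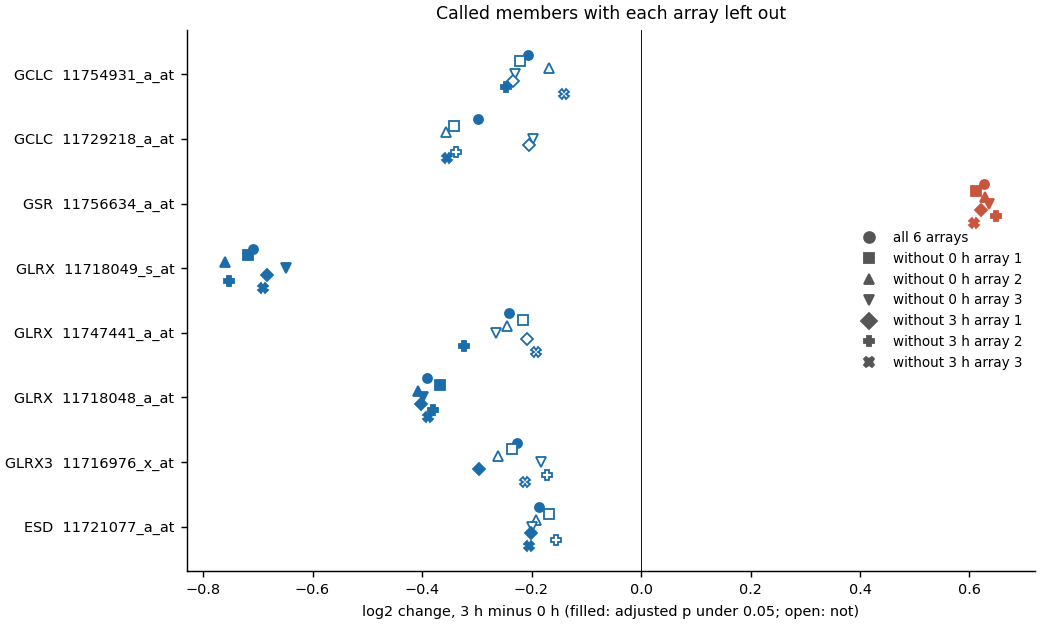
Log2 change of the 8 called probe sets with all 6 arrays and with each array left out; marker shape names the array left out, and filled markers have an adjusted p under 0.05 (limma). The markers of GSR 11756634_a_at and of GLRX 11718049_s_at and 11718048_a_at are all filled, and the other 5 rows hold open markers.

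Probe sets of the same member did not always move together. Among the 6 members with several probe sets above the floor, the range of log2 changes within a gene was 0.55 for GSR, 0.47 for GLRX, 0.30 for GCLC, 0.27 for GLRX5, 0.21 for GLRX3 and 0.02 for GSS. Their median of 0.29 lay near the median of 0.31 over the 7120 genes with several tested probe sets. A wider range than that of GSR was found in 21.0% of those genes, and a wider range than that of GSS in 96.8%. Of the 12 pairs of probe sets within a member, 9 had differences that did not overlap between the groups (two-sided exact permutation p = 0.1 each, at best 0.133 adjusted over the pairs, n = 3), a comparison chosen after the data were seen. Pairs of 1 gene share probe sets, and the share of such pairs over all genes was not computed, so nothing about the members is read from this count.

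**Figure D4:**
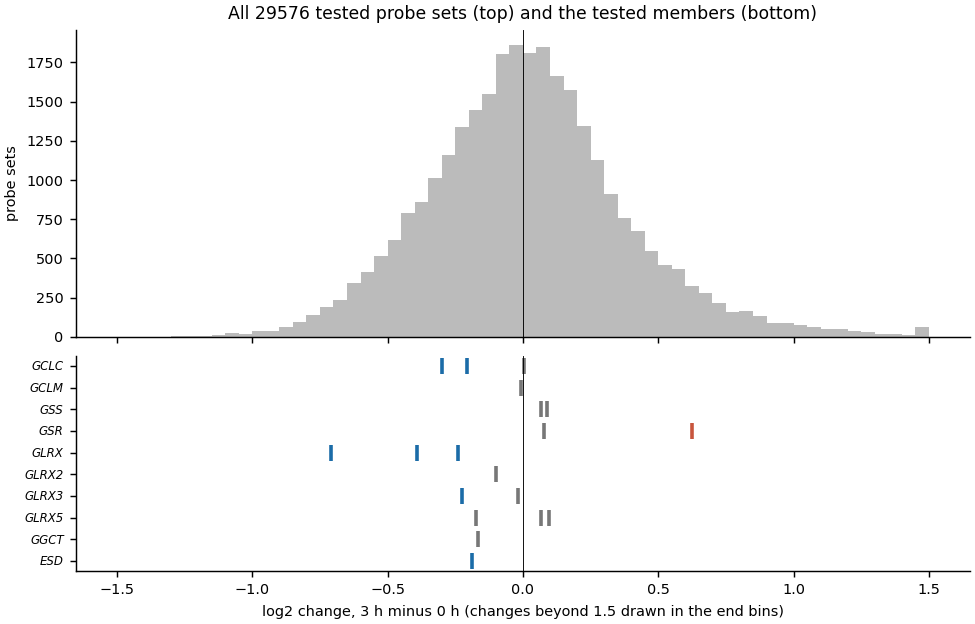
The upper panel counts the log2 changes of all 29576 tested probe sets in bins, and the lower panel marks each tested member probe set on the same axis in a row per gene; changes beyond 1.5 are counted in the end bins. Nearly all members lie in the dense middle, with GSR 11756634_a_at at 0.63 and GLRX 11718049_s_at at -0.71 outermost.

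The profile nearest to that of GCLC over the 6 arrays, by distance between centred log2 values of each gene's brightest probe set, was that of ACSL5 (distance 0.07, against a median of 0.42 over all genes), followed by MT3 and C9orf40. For GCLM the nearest were ARFGEF2, HACD3 and DHRS1 (0.04 to 0.05, median 0.37). For GLRX they were CETN3, MRPL18 and ZDBF2 (0.04 to 0.07, median 0.87). CETN3 and MRPL18 fell by 0.71 and 0.73. With 6 arrays in 2 groups such nearness mostly states a like change.

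Other genes of glutathione metabolism were called in both directions. In 7 lists, 69 genes were tested by their brightest probe set, and 16 rose, 26 fell and 27 did not pass. That is 23.2% higher and 37.7% lower, against 19.9% and 29.8% of all 12221 genes tested this way (median log2 change -0.07 against -0.04). These shares of all genes are also the background of each list count below, and no list was recounted by itself in the alternatives. Dropping the 0 h array 1, the 0 h array 2 or the 3 h array 2 left 7, 6 or 8 genes called higher. Called lower were then 18, 19 or 21. Over all tested probe sets 21.1%, 21.8% or 23.2% were then higher, against 25.6% with all arrays. For lower calls the shares were 20.5%, 21.2% or 23.4%, against 25.8%. Median centring left 10 higher and 29 lower, where 22.4% and 29.4% of all tested probe sets were called. These shares count probe sets, whereas the pathway genes were counted by their brightest one.

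**Figure D5:**
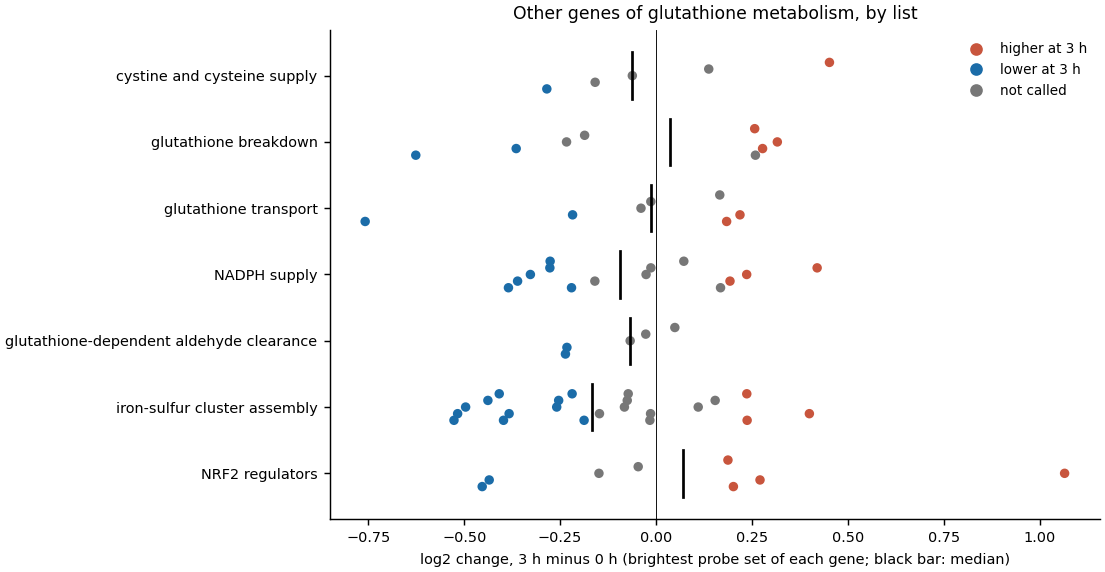
Each point is a gene of 1 of the 7 lists, placed by the log2 change of its brightest probe set, 3 h minus 0 h; red rose, blue fell, grey was not called, and black bars are list medians. The medians run from -0.17 for iron-sulfur cluster assembly to 0.07 for NRF2 regulators.

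Of 5 genes for cystine and cysteine supply, 1 rose and 1 fell. SLC3A2, the heavy chain of the cystine transporter, rose by 0.45 (limma adjusted p = 0.000384). Its light chain partner SLC7A11 stood at -0.16 (0.0623) on a shared probe set (_s), or 0.11 by the mean of its probe sets. SLC7A11 was called lower with array weights (-0.17), with median centring (-0.20) and on dropping the 3 h array 1 (-0.20). The floor at the 60th percentile (limma adjusted p = 0.0369) and eBayes with a trend and robust fit (0.0398) also called it lower. The glutamate and cysteine carrier SLC1A1 fell by 0.28 but was dim, with means of 4.91 at 0 h and 4.63 at 3 h (floor 4.64). Its call ended without any single 0 h array (-0.33 to -0.21) and without replicate 1 or 3 at 3 h (-0.21, -0.26). SLC1A4 stood at 0.14 (0.01 and 0.24 on dropping the 3 h array 1 or 3, and 0.00 by the mean of its probe sets). Of 8 breakdown genes 3 rose and 2 fell: CHAC2, which cleaves glutathione, fell by 0.63, and the peptidase genes LAP3 and CNDP2 fell by 0.36 and rose by 0.28. GGT7 rose by 0.32 (0.18 by the mean of its probe sets), and CHAC1 stood at -0.19 (0.184), at -0.06 on dropping the 0 h array 2 and at -0.08 by the mean. The call of CNDP2 was lost on dropping the 0 h array 2 (0.22) or the 3 h array 1 (0.23) or 2 (0.26), while it stood at 0.47 without shared probe sets and at 0.46 by the mean, both called. Of 7 transport genes 2 rose and 2 fell. ABCC4, an exporter that can carry glutathione, fell by 0.76 on a shared probe set and stood at -0.16, not called, without shared ones. ABCC1 (0.18), ABCC2 (0.22) and the mitochondrial carrier SLC25A40 (-0.22) passed with adjusted p of 0.0290 to 0.0409 and were each lost without several of the arrays, replicates 1 and 2 at 0 h and replicate 2 at 3 h among them (ABCC1 0.15, 0.18 and 0.19; ABCC2 0.15, 0.23 and 0.21; SLC25A40 -0.16, -0.22 and -0.22). Median centring ended the calls of ABCC1 (0.15) and ABCC2 (0.18). ABCC1 stood at 0.30 without shared probe sets and at 0.29 by the mean, both called. ABCC2 was dim, with means of 4.75 at 0 h and 4.97 at 3 h.

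Of 14 tested genes listed for the supply of NADPH, which GSR uses, 3 rose and 6 fell. The list also holds pentose phosphate genes whose enzymes make no NADPH themselves. TKT, 1 of these pentose phosphate genes, rose by 0.42. The malic enzyme genes ME3 and ME1 fell by 0.38 and 0.33, and the mitochondrial transhydrogenase gene NNT fell by 0.36 (-0.18 and not called without shared probe sets). Averaged over probe sets, ME3 stood at -0.03 and TKT at 0.15. Of 5 genes of aldehyde clearance 0 rose and 2 fell in limma (at an unadjusted p under 0.05, also 0 and 2): GLO1 fell by 0.24 and PARK7 by 0.23, while ADH5, which acts just before ESD, stood at -0.07 (0.326) and was called lower by the mean of its probe sets (-0.19), and HAGHL at 0.05 (-0.02 with array weights, and -0.03 to 0.14 with 1 array dropped). GLO1 stood at -0.03 without shared probe sets, and its call was lost when the 0 h array 1 (-0.24), the 0 h array 2 (-0.22) or the 3 h array 2 (-0.18) was dropped. That of PARK7 was lost on dropping the 0 h array 1 (-0.23) or the 3 h array 2 (-0.20).

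Iron-sulfur cluster assembly, the process that GLRX5 and GLRX3 serve, had 11 of 22 tested genes lower and 3 higher (median -0.17). Over all genes tested by their brightest probe set, 29.8% were lower and 19.9% higher (median -0.04). BOLA1, a partner of GLRX5, fell by 0.53 (SE 0.06, limma adjusted p = 0.000225). LYRM4, a part of the cysteine desulfurase complex, fell by 0.50, CIAO2A by 0.52 (-0.34 by the mean of its probe sets) and ISCA2 by 0.44. The probe sets of LYRM4, CIAO2A and ISCA2 have the suffix of shared probes (_s). The scaffold gene ISCU fell by 0.25 on its brightest probe set, but the mean of its probe sets gave an uncalled -0.04. BOLA2, a partner of GLRX3, lay under the floor on its 1 named probe set. Of 8 regulators of NRF2 4 rose and 2 fell. The small MAF gene MAFG rose by 1.07 and the NRF2 inhibitor gene KEAP1 by 0.27. RBX1, of the ligase that degrades NRF2, fell by 0.45 on a probe set with the suffix _x. The repressor gene BACH1 fell by 0.43 at a low level (means 5.42 at 0 h and 4.99 at 3 h, floor 4.64). NFE2L2, which encodes NRF2, stood at -0.05 (limma adjusted p = 0.591), at 0.16 without shared probe sets, at 0.05 by the mean of its probe sets, and at 0.00 and -0.10 on dropping the 3 h array 2 or 3.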

How the data were processed

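In all, 6 arrays were analysed, 3 per group, grouped by sample title. The authors deposited a log2 value per probe set; that scale was read from the values. MAS5 and RMA appear in the submitters' processing notes, with neither version nor role, and nothing in the sources used here gives further steps. Gene names came from GEO's platform annotation, which gave 1 symbol for 44988 probe sets, several for 1832 and none for 2473; a further 79 are controls and did not enter the fit. The 3 h and 0 h arrays were compared over 29576 probe sets with lmFit and eBayes of limma 3.58.1 (R 4.3.3), adjusted by Benjamini-Hochberg over all of them; changes are 3 h minus 0 h. On simulated data for this comparison over 29576 probe sets, 91 of 100 probe sets changed by 1 and 57 of 100 changed by 0.5 (log2) were called. No other probe sets were changed there, whereas 51.4% were called in the data. The adjustment was thus stricter in the simulation, and its rates do not give the sensitivity of this comparison. The number of arrays limits the precision.

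All probe sets of the members are named. From the other lists, up to 4 genes with the smallest p are named, with SLC7A11, SLC3A2, NFE2L2, KEAP1, CHAC1, ADH5, BOLA2 and ISCU; another gene of this rule is not reported here. For GCLC, GCLM and GLRX the 3 nearest profiles are named. The members and lists were chosen with earlier results of these data known. Alternatives covered scaling, floor, variance moderation, array weights, a replicate block, threshold, fold minimum, shared probe sets, gene-level tests and leaving out each array. Means over the probe sets of a gene also took in those under the floor.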

Additional observations from a re-analysis of the deposited data

How the results depend on the processing

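Of the member probe sets 7 were called lower and 1 higher. The lower count, with the share of all features called lower, was 2 of 22 with no floor (15.6%), 4 of 14 without shared or cross-hybridizing probe sets (24.1%), 2 of 19 at a threshold of 0.01 (17.4%), 1 of 19 with a minimum of 1.5-fold (4.51%), and 3 genes of 10 when tested by their brightest probe set (30.8%) or the mean of their probe sets (29.9%); the brightest probe sets gave 0 genes higher in limma (also 0 at an unadjusted p under 0.05). Leaving out 1 array gave 2 to 5 lower (background 20.5% to 25.2%) and 1 higher each time. Among the other genes of the pathway 16 of 69 were higher and 26 lower. The higher count, with the share of all probe sets, was 10 with median centring (22.4%) and 9 of 75 with no floor (15.9%). It was 6 at a threshold of 0.01 (17.6%) and 1 with a minimum of 1.5-fold (6.72%). The lower counts, in the same order, were 29 (29.4%), 22 (15.6%), 16 (17.4%) and 2 (4.51%). Leaving out 1 array gave 6 to 14 higher (background 21.1% to 24.5%) and 18 to 25 lower (background 20.5% to 25.2%). These shares count probe sets, whereas the pathway genes were counted by their brightest one. Some uncalled changes near 0 turned sign: GCLC 11750770_a_at stood at -0.0164 with quantile normalization, -0.0349 with median centring, -0.00789 with array weights, and -0.0306 to 0.0287 with 1 array left out; GCLM 11723490_at ran from -0.0495 to 0.0326 with 1 array left out; GLRX5 stood at -0.00378 by the mean of its probe sets. The difference between GCLM and GCLC turned to -0.00699 by gene means, which take in probe sets under the floor. It was 0.09 to 0.28 with 1 array left out, and that between GLRX and GLRX3 was then -0.75 to -0.62. The causes were not tested. Replicate numbers did not pair the arrays: deviations of same-numbered arrays correlated at -0.01, -0.04 and -0.19. With the replicate block, 5 member probe sets were called lower and 1 higher, GLRX3 11716976_x_at (adjusted p = 0.0554) and ESD (0.0599) not being called in limma. The differences of GCLM and GCLC (0.20) and of GLRX and GLRX3 (-0.69) had an exact sign-permutation p of 0.25 with that block. This is the smallest value that 3 pairs allow, so it cannot show a weaker difference.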
